A study of Mus musculus with 31 samples.

Results

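The AP-1 factors described here are 8 genes, Jun, Junb, Jund, Fos, Fosb, Fosl1, Fosl2 and Atf3, taken by name from the 29267 genes in the tables of 31 mouse RNA-seq libraries. All 8 were found and all 8 passed the filter on low counts, along with 14914 genes in all. AP-1 is a transcription factor made of 2 proteins that pair through a leucine zipper and bind DNA through the basic region beside it. Jun proteins pair with each other or with Fos proteins, whereas Fos proteins need a Jun partner, and Atf3 pairs with Jun proteins or with itself. Fos, Fosb, Junb and Atf3 are classical immediate early genes, switched on within minutes by growth factors, serum or stress. AP-1 is abundant in fibroblasts, where it is bound at many of their enhancers.

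The cells were of the mouse strain 129/OG2 and carried no label of sex or age. Reprogramming cells, driven by OKSM (Pou5f1, Klf4, Sox2 and Myc), had received a Tet1CD virus or a Flag virus. They were kept with vitamin C (Vc), DKG or DMSO and were collected at day 3 or day 8. Each of these 12 groups had 2 libraries, numbered 0826 and 0824. Embryonic stem cells (ESC) had 2 libraries, called 0822 (passage 17) and 0819 (passage 19). Untreated fibroblasts (MEF, passage 2) had 2 libraries, numbered 0826 and 0824. MEF kept for 3 days with Vc, DKG or DMSO had 1 library each and are given as values only. The title of the DKG library names 2DG instead. The labels say neither what Tet1CD and DKG are, nor the doses, nor what the numbers stand for. The Flag virus and DMSO are taken here as the controls.

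Library totals lay between 3953297 and 6818060 counts. Tet1 stood at 178.8 to 675.2 CPM in the 12 Tet1CD libraries and at 4.256 to 32.02 CPM in the 12 Flag libraries. CPM is the count scaled to a common library size after TMM normalisation. The ESC library 0822 stood apart: 10 fibroblast markers summed to 9207 CPM in it, against 79.35 CPM in the ESC library 0819 and 30320 to 31060 CPM in untreated MEF. In these libraries 10 pluripotency markers summed to 3153 CPM in 0822 and 4493 CPM in 0819, so the ESC results were also computed without each library. One day 8 library, Tet1CD with Vc numbered 0824, held 1090 CPM of 10 macrophage markers, where the median of the 6 day 8 libraries of its number was 11.1 CPM. In bulk RNA, fewer cells of a type and less RNA per cell cannot be told apart.

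The 8 genes lie on 7 chromosomes (mm10 coordinates). The Jun family comprises Jun (ENSMUSG00000052684, chr4:95049034-95052222, minus strand), the single-exon founder of the family and a strong activator, Junb (ENSMUSG00000052837, chr8:84974484-84978718, minus strand) and Jund (ENSMUSG00000071076, chr8:70698949-70700616, plus strand), the member least dependent on stimulation. The Fos family comprises Fos (ENSMUSG00000021250, chr12:85473890-85477273, plus strand), Fosb (ENSMUSG00000003545, chr7:19302696-19310051, minus strand), Fosl1 (ENSMUSG00000024912, chr19:5447547-5455946, plus strand), also called Fra-1, and Fosl2 (ENSMUSG00000029135, chr5:32135801-32157842, plus strand), also called Fra-2. Atf3 (ENSMUSG00000026628, chr1:191170296-191218039, minus strand) is a stress-induced relative of the ATF family. The deposited count of Jund was not a whole number in 31 of 31 libraries and that of Jun in 19 of 31 (tolerance 0.005). RSEM gives such counts where it divides reads among several genes, so the levels of these genes are estimates.

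Promoter sequence was available in RefSeq (GRCm38.p6) for 7 of the 8 genes, all except Fosl1. The 250 bases before the annotated start are shown for Jun and Atf3, which held one of the 4 motifs searched, and for Fosb, the member with the largest difference between the 2 library numbers at day 8. The motifs were the AP-1 element TGAGTCA, the cyclic AMP element TGACGTCA, its variant TTACGTCA, and TGACATCA, the form known from the Jun promoter. They do not contain one another, and both strands were searched. Capitals mark the motif, and the sequences run 5′ to 3′ on the gene's strand, which is the minus strand for all 3 genes. The windows are chr4:95052223-95052472 for Jun, chr1:191183334-191183583 for Atf3 and chr7:19310046-19310295 for Fosb.
Jun: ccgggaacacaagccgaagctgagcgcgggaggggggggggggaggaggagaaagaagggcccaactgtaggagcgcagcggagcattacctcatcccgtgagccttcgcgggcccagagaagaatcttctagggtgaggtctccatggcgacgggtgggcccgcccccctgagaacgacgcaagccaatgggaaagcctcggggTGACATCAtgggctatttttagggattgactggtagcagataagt
Atf3: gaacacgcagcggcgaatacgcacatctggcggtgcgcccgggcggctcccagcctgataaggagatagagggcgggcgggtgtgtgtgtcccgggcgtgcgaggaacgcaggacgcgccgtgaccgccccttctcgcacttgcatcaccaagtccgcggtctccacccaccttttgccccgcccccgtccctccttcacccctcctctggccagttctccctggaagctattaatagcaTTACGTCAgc
Fosb: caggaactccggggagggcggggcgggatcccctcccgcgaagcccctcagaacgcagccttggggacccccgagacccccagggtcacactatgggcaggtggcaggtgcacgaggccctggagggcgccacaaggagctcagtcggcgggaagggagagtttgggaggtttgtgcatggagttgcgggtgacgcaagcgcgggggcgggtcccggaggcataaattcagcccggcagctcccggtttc
Jun carried TGACATCA 45 to 38 bases before its start, and Atf3 carried TTACGTCA 10 to 3 bases before its start. Of the 32851 windows of this length in the table, 2.93% held TGACATCA, 0.447% held TTACGTCA, 4.46% held TGAGTCA and 1.55% held TGACGTCA. Junb, Jund, Fos, Fosb and Fosl2 held none of the 4 letter strings in this window. The RefSeq starts used for Atf3, Fosl2 and, by a few bases, Fosb lie inside the longer gene models given above. The windows of Atf3 and Fosl2 thus lie within their gene models. The starts of Jund and, by fewer bases, Junb lie before their gene models.

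Per unit of transcript length, untreated MEF held most transcripts of Junb, with levels in the libraries 0824 and 0826 of 150.8 and 91.86 TPM, followed by Jun with 101.8 and 78.3 TPM, Fosl2 with 79.38 and 76.47 TPM and Jund with 74.06 and 63.1 TPM. The libraries of Junb, Jun and Fosl2 overlap with those of the neighbour in this order, and from Fosl2 down to Fosb no neighbours overlap. Fosl1 followed with 58.23 and 45.07 TPM and Fos with 24.5 and 19.35 TPM. Atf3 and Fosb were lowest, at 7.53 and 4.99 TPM and at 3.91 and 1.59 TPM. In ESC the order was another one, with Jund first, at 34.42 TPM in the library 0822 and 52.36 TPM in 0819, and Junb next, at 34.66 and 18.14 TPM, with overlap.

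**Figure D1:**
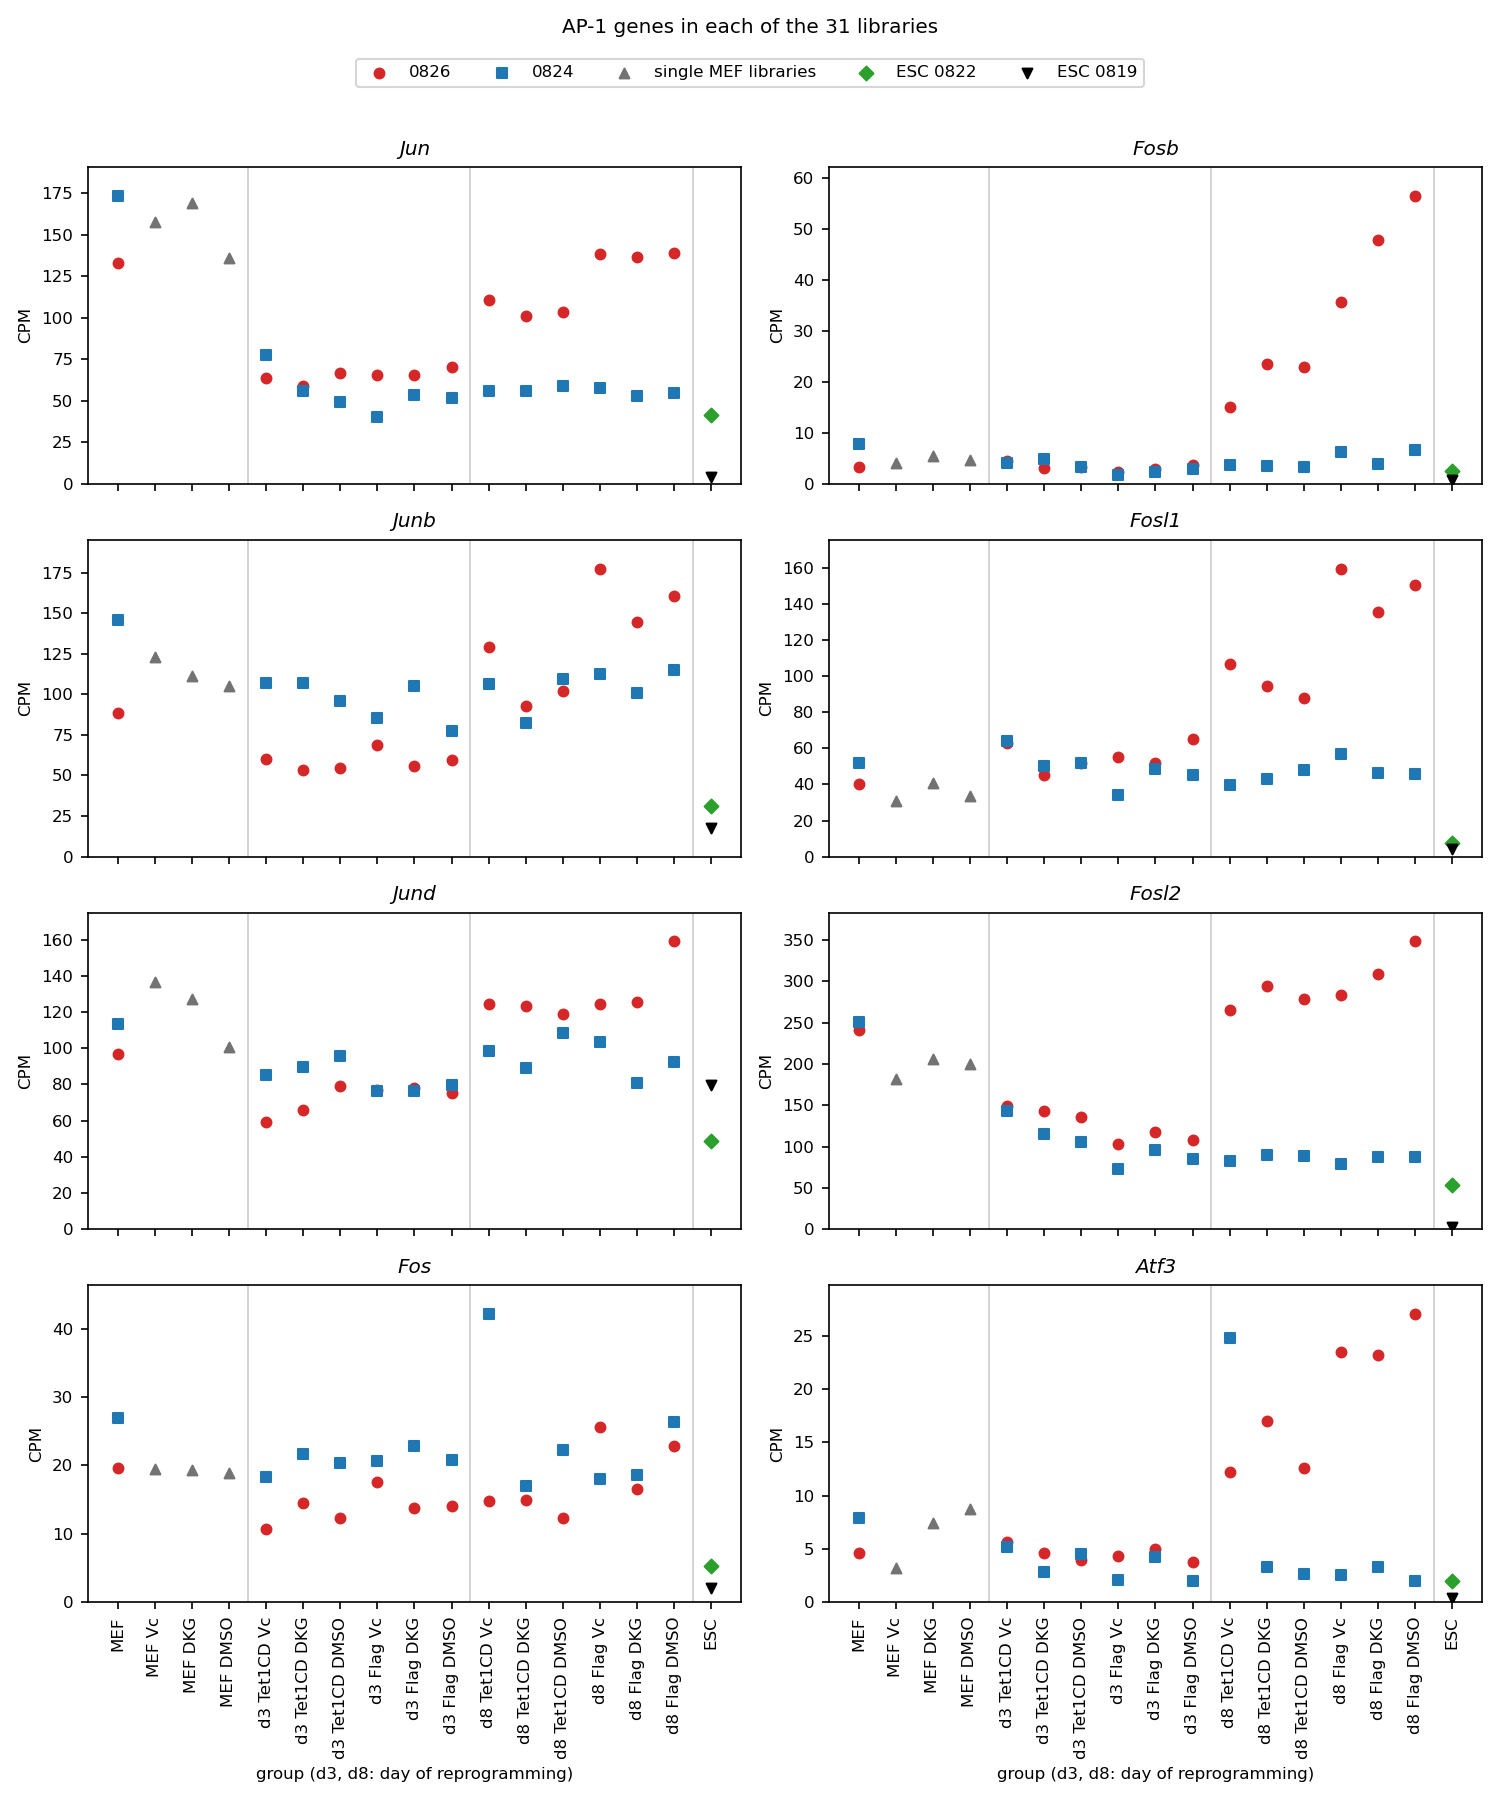
CPM (linear axis from 0) of each AP-1 gene in each of the 31 libraries, by group; red circles are libraries numbered 0826, blue squares 0824, grey triangles the single MEF libraries, and the green diamond and black triangle the ESC libraries 0822 and 0819. At day 8 the red points of Fosb (15.17 to 56.58 CPM) and Fosl2 (265.2 to 348.2 CPM) lie above all blue points (3.3 to 6.736 and 78.89 to 90.46 CPM).

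ESC were set against MEF to give the difference between the end state and the start. Among the 8 AP-1 genes, 6 were lower in ESC than in MEF and 0 were higher, where 25.7% of all genes tested were lower and 26.8% higher (edgeR quasi-likelihood test, Benjamini-Hochberg adjusted p under 0.05). The median log2 fold change of the 8 genes was -2.52, against 0 for all genes tested. Fosl1 had 7.765 and 4.216 CPM in the ESC libraries 0822 and 0819, against 52.03 and 40.21 CPM in the MEF libraries 0824 and 0826, a log2 fold change of -2.93 ± 0.70 (SE; adjusted p = 0.00233). Fos had 5.241 and 2.108 CPM in ESC, against 26.97 and 19.6 CPM in MEF (log2 fold change -2.65 ± 0.52, adjusted p = 0.00053). Junb had 31.06 and 17.44 CPM in ESC, against 145.7 and 88.62 CPM in MEF (log2 fold change -2.26 ± 0.43, adjusted p = 0.000399). Both ESC libraries were below both MEF libraries for each of the 8 genes. The share of all genes with this pattern was not counted.

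Cell type markers differed between ESC and MEF as well. Pluripotency markers were higher in ESC for 10 of 10 (median log2 fold change 11.2) and epithelial markers for 8 of 10 (median 7.18). Of 8 endothelial markers 5 were tested and 4 were higher. Fibroblast markers were lower for 5 of 10 (median -2.36). Macrophage markers were lower for 9 of 10 (median -5.07). They summed to 100.9 and 36.99 CPM in the ESC libraries 0822 and 0819, against 2565 and 536.3 CPM in the MEF libraries 0824 and 0826. The part of these markers in the levels of the AP-1 genes was not tested.

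Jun and Fosl2 were lower in ESC as well, but by very different amounts in the 2 ESC libraries. Jun had 41.15 CPM in the library 0822 and 4.025 CPM in 0819, against 173.5 and 133.2 CPM in MEF (log2 fold change -2.75 ± 0.74, adjusted p = 0.00497). Fosl2 had 54.16 CPM in 0822 and 2.683 CPM in 0819, against 251 and 241.5 CPM in MEF (log2 fold change -3.10 ± 1.01, adjusted p = 0.0158). The library with more Jun and Fosl2 is the one with the fibroblast markers named above, and their part in these levels was not tested. Without the library 0822 the log2 fold change was -5.26 for Jun and -6.52 for Fosl2 (adjusted p = 0.000107 and 0.00102), and without 0819 it was -1.88 for Jun and -2.17 for Fosl2 (adjusted p = 0.0411 and 0.106).

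Jund differed least. It had 48.92 and 79.92 CPM in ESC, against 113.6 and 96.62 CPM in MEF (log2 fold change -0.70 ± 0.29, adjusted p = 0.0482). This call was lost in 3 of 4 fits that each left out 1 library (without ESC 0822 and without either MEF library; highest adjusted p = 0.297). Fosb, with 2.524 and 0.7666 CPM in ESC and 7.858 and 3.201 CPM in MEF, did not pass the test (log2 fold change -1.72 ± 1.37, adjusted p = 0.3). Neither did Atf3, with 1.941 and 0.3833 CPM in ESC and 7.858 and 4.601 CPM in MEF (log2 fold change -2.39 ± 1.33, adjusted p = 0.139). Each of the 4 fits without 1 library called 5 of the 8 genes. The labels do not name separate cultures behind the libraries, so all p-values measure only the spread between libraries, which may be technical.

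Day 3 of reprogramming, averaged over the 6 groups, was set against MEF. Of the AP-1 genes only Jun passed the test, and it was lower, where 41.8% of all genes passed, 21.7% lower and 20.1% higher. Jun lay between 40.26 and 77.74 CPM in the 12 day 3 libraries (median 61.36), against 173.5 and 133.2 CPM in untreated MEF, with no overlap (log2 fold change -1.36 ± 0.47, adjusted p = 0.0264). The 3 MEF libraries kept for 3 days had 157.8 CPM with Vc, 169.1 CPM with DKG and 136.2 CPM with DMSO, in the range of untreated MEF. The call of Jun was lost without the MEF library 0824 (adjusted p = 0.23) and without the MEF library 0826 (adjusted p = 0.0838).

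Fosl2 likewise had no overlap, with 73.31 to 149.5 CPM at day 3 (median 112.3) and 251 and 241.5 CPM in MEF, but did not pass the test (log2 fold change -1.12 ± 0.64, adjusted p = 0.174). The share of all genes without such overlap was not counted, so it cannot be called particular to Jun and Fosl2. The MEF libraries kept for 3 days had 181.2 CPM with Vc, 206 CPM with DKG and 200.5 CPM with DMSO, between untreated MEF and the day 3 libraries. A further fit left out the ESC libraries and took the library number as a single replicate block over MEF, day 3 and day 8. There Jun and Fosl2 both passed, at log2 fold changes of -1.43 and -1.19 (adjusted p = 0.000107 and 0.00704). The number differences were little correlated across days (r between -0.0133 and 0.193) and between MEF and others (-0.0115 to 0.332). The numbers thus were not shown to pair these libraries, and this fit adds no firm support. Fosl1 gave the only positive value, 0.17 ± 0.48 (adjusted p = 0.814): it lay between 34.19 and 65.36 CPM at day 3, on both sides of the 52.03 and 40.21 CPM of MEF. Junb, Jund, Fos, Fosb and Atf3 had log2 fold changes between -0.81 and -0.43, and none passed (adjusted p between 0.109 and 0.576).

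Beside these values, 10 fibroblast markers summed to 1713 to 4603 CPM in the day 3 libraries, against 30320 to 31060 CPM in untreated MEF, and 9 of the 10 were lower at day 3. Macrophage markers summed to 9.306 to 71.21 CPM at day 3, against 536.3 and 2565 CPM in MEF, and 10 of 10 were lower. Stratified epithelium markers were higher at day 3 for 6 of 10. The part of any of them in the levels of the AP-1 genes was not tested.

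**Figure D2:**
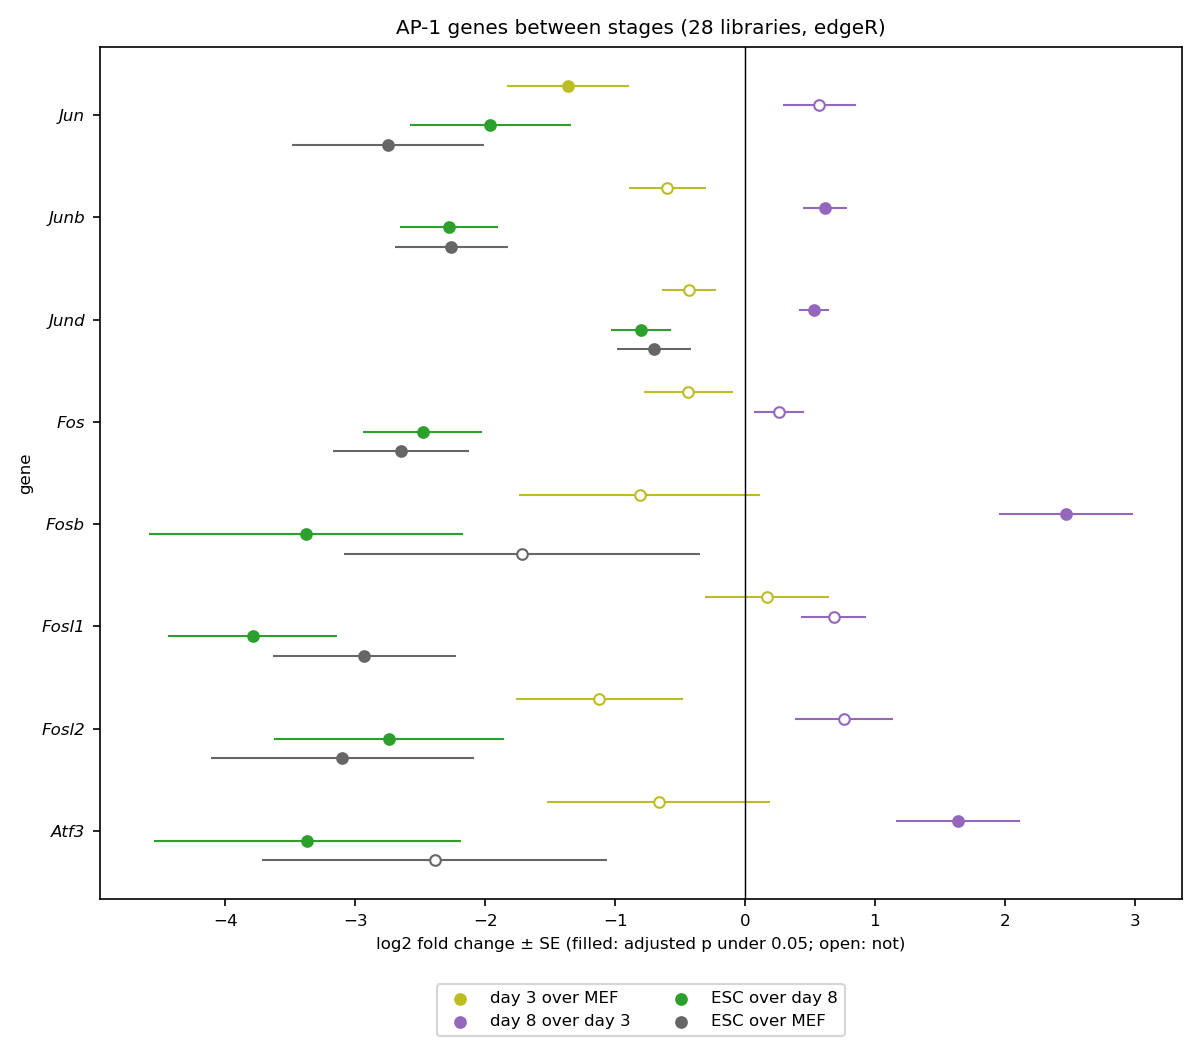
Log2 fold change (horizontal axis, points) with its standard error (lines) for each AP-1 gene in 4 comparisons of stages; filled points had an adjusted p under 0.05 and open points did not. All 8 genes lie left of 0 for ESC over day 8, and Fosb lies farthest right for day 8 over day 3, at 2.47.

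Day 8 was set against day 3 over the same 6 combinations of virus and medium, and shares the day 3 libraries with the comparison of day 3 and MEF. Junb, Jund, Fosb and Atf3 were higher at day 8, 4 of 8 genes and none lower, where 14.4% of all genes were higher and 10.7% lower. Fosb lay between 3.3 and 56.58 CPM at day 8 (median 10.95) and between 1.709 and 4.966 CPM at day 3 (median 3.159), with overlap (log2 fold change 2.47 ± 0.52, adjusted p = 0.00212). Atf3 lay between 2.006 and 27.04 CPM at day 8 (median 12.41) and between 1.963 and 5.615 CPM at day 3 (median 4.311; log2 fold change 1.64 ± 0.48, adjusted p = 0.0175). Junb had a median of 110.9 CPM at day 8 and 73.22 CPM at day 3 (log2 fold change 0.62 ± 0.17, adjusted p = 0.0118), and Jund 113.7 CPM at day 8 and 77.44 CPM at day 3 (0.53 ± 0.12, adjusted p = 0.00287). The fit counted the libraries of a day as independent, but differences between the library numbers moved together among groups of a day. Their correlations lay between 0.388 and 0.58 within day 3 and between 0.377 and 0.751 within day 8. These p-values may therefore be too small, and so may those of day 3 over MEF and of ESC over day 8.

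Markers of other cell types were also higher at day 8 than at day 3. Stratified epithelium markers were higher for 10 of 10 (median log2 fold change 2.65), with sums of 125.3 to 540.5 CPM at day 8 and 41.46 to 133.4 CPM at day 3. Epithelial markers were higher for 9 of 10 (median 3.95), with sums of 86.05 to 448.1 CPM at day 8 and 34.87 to 70.25 CPM at day 3. Pluripotency markers were higher for 8 of 10 (median 2.73), with sums of 31.79 to 295.5 CPM at day 8 and 7.056 to 31.15 CPM at day 3. Fibroblast markers were higher for 2 of 10, macrophage markers for 0 of 10 and endothelial markers for 1 of 5 tested. None was lower. Their part in the levels of the AP-1 genes was not tested.

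The values differed between the 2 sets of libraries, in fits of each set alone that were added after the data were seen. Within a number each group had 1 library. Libraries of different virus and medium thus served as replicates of a day, and the p-values do not measure the spread between repeats of a group. In the 12 libraries numbered 0826, all 8 genes were higher at day 8 than at day 3, where 60% of all genes were called in either direction. In the 12 libraries numbered 0824 only Jund passed, also higher, where 29.3% were. Fosb had a log2 fold change of 3.24 in the 0826 libraries (adjusted p = 2.4e-09) and 0.51 in the 0824 libraries (adjusted p = 0.112). Atf3 had 2.05 in the 0826 libraries (adjusted p = 1.53e-07) and 0.31 in the 0824 libraries (adjusted p = 0.644). Junb had 1.18 in the 0826 libraries (adjusted p = 1.09e-08) and 0.13 in the 0824 libraries (adjusted p = 0.148). Fosl2 had values of opposite sign, 1.25 in the 0826 libraries (adjusted p = 7.02e-09) and -0.22 in the 0824 libraries (adjusted p = 0.0787).

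The call of Atf3 over both numbers was lost in 5 of 24 fits without 1 library, each time without a day 8 library numbered 0826 (Flag with Vc, DKG or DMSO, or Tet1CD with DKG or DMSO; highest adjusted p = 0.0726). Fosl1, at an adjusted p of 0.0528 with all libraries, passed in the 6 fits that left out a day 8 library numbered 0824 (log2 fold change 0.73 to 0.79). With the number as a replicate block over MEF, day 3 and day 8 libraries, 7 of the 8 genes were higher at day 8, all except Fos. The share of all genes called in that fit is not given here, so this count cannot be set against it.

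The 2 numbers were therefore compared directly within each day, in a fit of the 24 reprogramming libraries with a term for the number at day 3 and another at day 8. At day 8, 7 AP-1 genes were higher in the 0826 libraries than in the 0824 libraries and 1, Fos, was lower, where 27% of all genes were higher and 30.3% lower. Each number is 1 set of 6 libraries of a day, so the p-values compare these sets and not a condition of the study.

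Fosb, a Fos protein induced by stimulation, differed most. In Tet1CD cells at day 8 it had 15.17 CPM in the 0826 library and 3.639 CPM in the 0824 library with Vc, 23.49 and 3.411 CPM with DKG, and 22.9 and 3.3 CPM with DMSO. In Flag cells at day 8 it had 35.73 CPM in the 0826 library and 6.173 CPM in the 0824 library with Vc, 47.9 and 3.828 CPM with DKG, and 56.58 and 6.736 CPM with DMSO. The lowest 0826 library was above the highest 0824 library. The ratio of 0826 over 0824 within a group lay between 4.17 and 12.5 (median 6.92; log2 fold change 2.83 ± 0.16, adjusted p = 1.3e-10). Only 0.385% of the 14015 genes in this fit had a larger absolute fold change.

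Among the genes whose libraries did not overlap, Fosl2 came after Fosb. It stood at 265.2 to 348.2 CPM in the 0826 libraries (median 288.8), against 78.89 to 90.46 CPM in the 0824 libraries (median 87.32), a median ratio of 3.39 (log2 fold change 1.78 ± 0.06, adjusted p = 3.88e-13). Fosl1 had 88.06 to 159.7 CPM in the 0826 libraries (median 121.1), against 39.51 to 56.9 CPM in the 0824 libraries (median 46.11), a median ratio of 2.76 (log2 fold change 1.37 ± 0.11, adjusted p = 7.1e-09). Jun had 100.8 to 138.9 CPM in the 0826 libraries (median 123.7), against 52.82 to 58.71 CPM in the 0824 libraries (median 55.93), a median ratio of 2.19 (log2 fold change 1.1 ± 0.10, adjusted p = 5.7e-08). The Fos-family genes Fosl1 and Fosl2 and their partner Jun thus stood apart in each of the 6 pairs. Atf3, whose libraries overlapped, had a larger log2 fold change than Fosl2 and is described below with Fos.

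Jund and Junb differed less. Jund had 119 to 159 CPM in the 0826 libraries, against 80.76 to 108.5 CPM in the 0824 libraries, without overlap (log2 fold change 0.43 ± 0.08, adjusted p = 0.000254). Junb had 93.06 to 177.5 CPM in the 0826 libraries, against 82.15 to 115.2 CPM in the 0824 libraries, with overlap (log2 fold change 0.34 ± 0.09, adjusted p = 0.00535). Jun, Jund, Fosb, Fosl1 and Fosl2 are 5 genes without overlap and with 0826 higher, where 11.5% of all genes tested had this pattern and 9.95% the opposite one.

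Fos had 12.33 to 25.66 CPM in the 0826 libraries (median 15.73), against 17.05 to 42.11 CPM in the 0824 libraries (median 20.42; log2 fold change -0.42 ± 0.17, adjusted p = 0.0467). Atf3 had 12.25 to 27.04 CPM in the 0826 libraries (median 20.09), against 2.006 to 24.78 CPM in the 0824 libraries (median 2.933; log2 fold change 2.01 ± 0.42, adjusted p = 0.000489). The highest value of both genes among the 0824 libraries, 42.11 CPM of Fos and 24.78 CPM of Atf3, came from the Tet1CD library with Vc that held the macrophage markers. The other 5 libraries of that number lay between 17.05 and 26.37 CPM for Fos and between 2.006 and 3.262 CPM for Atf3. In the same library Csf1r, the receptor of macrophage growth factor, stood at 208.1 CPM and Adgre1, which encodes F4/80, at 45.92 CPM, against at most 2.224 and 0.4125 CPM in the other 5. Their part in the levels of Fos and Atf3 was not tested. Without this library Fos did not pass (log2 fold change -0.16 ± 0.14, adjusted p = 0.351), and Atf3 reached 2.88 ± 0.20 (adjusted p = 7.05e-10). In that fit Jun, Junb, Jund, Fosb, Fosl1 and Fosl2 had log2 fold changes between 0.36 (Junb) and 2.98 (Fosb).

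**Figure D3:**
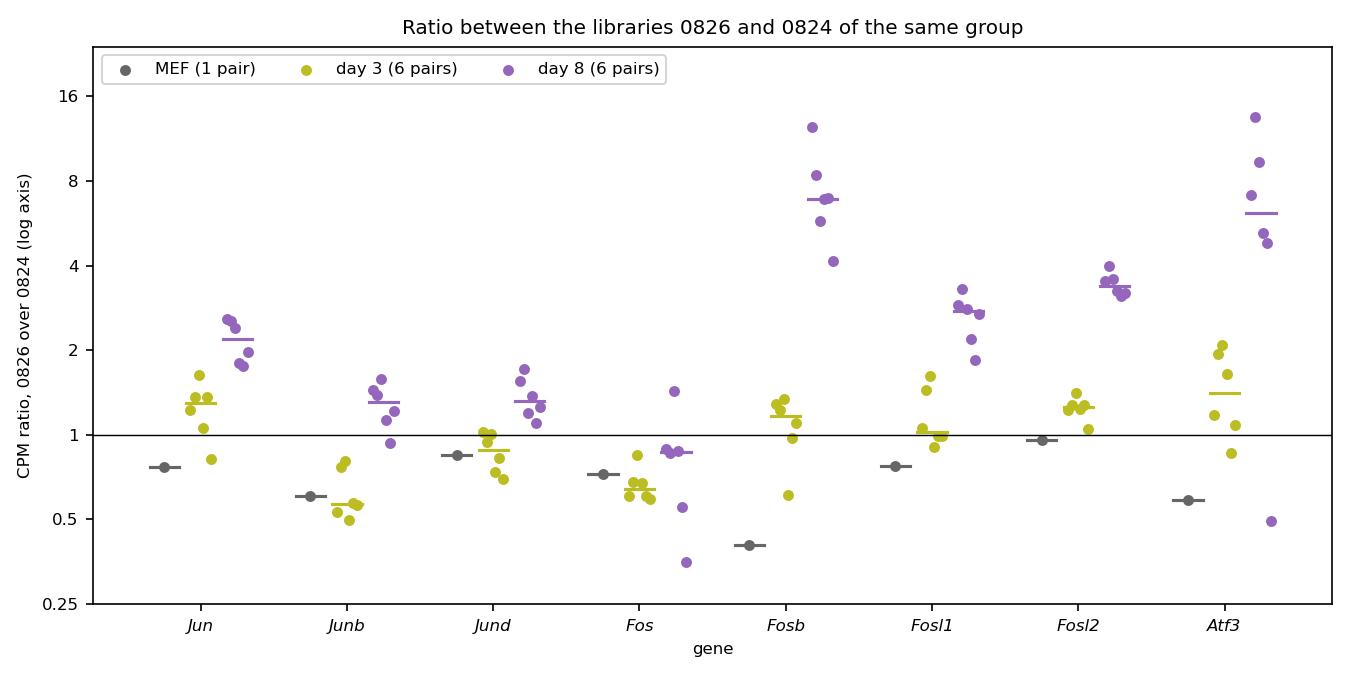
CPM ratio of the library 0826 over the library 0824 of the same group (vertical log axis) for each AP-1 gene; grey is the single MEF pair, olive the 6 pairs of day 3, purple the 6 pairs of day 8, and short lines are medians. The day 8 medians are 6.92 for Fosb, 6.17 for Atf3 and 3.39 for Fosl2, whereas the day 3 medians of these genes are 1.16, 1.42 and 1.26.

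At day 3 the numbers differed in another way: Junb and Fos were lower in the 0826 libraries and Jun and Fosl2 higher, 2 genes each way, where 17.9% of all genes were higher and 17.3% lower. Junb had 53.42 to 68.76 CPM in the 0826 libraries, against 77.69 to 107.1 CPM in the 0824 libraries (median ratio 0.566; log2 fold change -0.70 ± 0.10, adjusted p = 3.19e-05). Fos had 10.76 to 17.5 CPM in the 0826 libraries, against 18.23 to 22.86 CPM in the 0824 libraries (median ratio 0.64; log2 fold change -0.58 ± 0.18, adjusted p = 0.0181). Neither gene overlapped, a pattern that 5.04% of all genes tested had with 0826 lower. Fosb overlapped at day 3, with 2.292 to 4.445 CPM in the 0826 libraries and 1.709 to 4.966 CPM in the 0824 libraries (log2 fold change 0.05 ± 0.23, adjusted p = 0.883).

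The log2 ratio of 0826 over 0824 was itself higher at day 8 than at day 3 for 6 genes, where 22.9% of all genes had a higher and 22.7% a lower value. This change is signed. For Junb the ratio went from -0.70 at day 3 to 0.34 at day 8, so the numbers differed less at day 8 and the other way round. For Jund it went from -0.20 to 0.43. The change in the log2 ratio was 2.78 ± 0.28 for Fosb (adjusted p = 4.78e-07), 1.46 ± 0.09 for Fosl2 (adjusted p = 7.31e-10), 1.17 ± 0.16 for Fosl1 (adjusted p = 9.12e-06) and 1.03 ± 0.14 for Junb (adjusted p = 9.32e-06). It was 0.81 ± 0.15 for Jun (adjusted p = 0.00021) and 0.63 ± 0.12 for Jund (adjusted p = 0.000357). Atf3, at 1.57 ± 0.67 (adjusted p = 0.0634), and Fos, at 0.16 ± 0.25 (adjusted p = 0.636), did not pass with all 24 libraries. Without the library of high macrophage markers Atf3 passed, at 2.44 ± 0.31 (adjusted p = 3.58e-06), and Fos did not, at 0.42 ± 0.19 (adjusted p = 0.0809).

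Several cell type markers moved with the numbers at day 8. Fibroblast markers summed to 3615 to 5698 CPM in the 0826 libraries, against 1617 to 2687 CPM in the 0824 libraries, and 10 of 10 were higher. Epithelial markers summed to 86.05 to 189.9 CPM in the 0826 libraries, against 286.4 to 448.1 CPM in the 0824 libraries, and 10 of 10 were lower. Pluripotency markers outside OKSM summed to 31.79 to 127.2 CPM in the 0826 libraries, against 40.7 to 295.5 CPM in the 0824 libraries, and 8 of 10 were lower. Stratified epithelium markers were lower for 9 of 10. At day 3 the fibroblast sum was 3410 to 4603 CPM in the 0826 libraries, against 1713 to 3387 CPM in the 0824 libraries, and 5 of 10 were higher. The part of these markers in the levels of the AP-1 genes was not tested.

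Relatives and regulators of AP-1 were read from lists that are described by counts. Of 22 other immediate early genes, 18 were higher in the 0826 than in the 0824 libraries at day 8 and 3 were lower (median log2 fold change 0.78, against -0.04 for all genes in the fit). In that fit 27% of all genes were higher and 30.3% lower. Nr4a3, a nuclear receptor induced by stimulation, had 25.42 to 46.06 CPM in the 0826 libraries, against 1.906 to 3.296 CPM in the 0824 libraries (log2 fold change 3.71 ± 0.16, adjusted p = 5.41e-12). Arc, known from active neurons, had 40.31 to 87.87 CPM in the 0826 libraries, against 7.415 to 14.38 CPM in the 0824 libraries (2.45 ± 0.18, adjusted p = 2.79e-09). Klf2 and Btg2 were lower, by log2 fold changes of -0.90 ± 0.20 and -0.53 ± 0.07 (adjusted p = 0.000788 and 3.01e-06).

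Of 11 tested bZIP relatives, 7 were higher in the 0826 libraries at day 8 and 0 lower. Of all genes in the fit, 27% were higher and 30.3% lower. Maff, a small Maf protein, led with 59.04 to 103.1 CPM in the 0826 libraries, against 25.27 to 34.11 CPM in the 0824 libraries (log2 fold change 1.40 ± 0.12, adjusted p = 1.58e-08). Jdp2, a Jun dimerisation partner that acts as a repressor, was next (0.98 ± 0.15, adjusted p = 2.61e-05). Of 10 tested MAP kinase phosphatases, which switch off the kinases that act on AP-1, 8 were higher and 1 lower. Dusp4 had 94.48 to 154.7 CPM in the 0826 libraries, against 36.75 to 45.1 CPM in the 0824 libraries (1.41 ± 0.10, adjusted p = 1.4e-09).

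Among the 16 genes of the kinase relay to AP-1, 5 were higher and 2 lower in the 0826 libraries at day 8, so most did not pass. Since 27% of all genes were higher and 30.3% lower, the higher count was near the share of all genes. Srf, the serum response factor that acts on Fos, was among the higher ones, with a median of 186.7 CPM in the 0826 libraries and 73 CPM in the 0824 libraries (1.42 ± 0.09, adjusted p = 4.82e-10). Of 22 tested genes known as AP-1 targets, 16 were higher and 3 lower. Hmox1, a haem-degrading enzyme also known as a target of other stress pathways, had 330.4 to 576.8 CPM in the 0826 libraries, against 42.87 to 110 CPM in the 0824 libraries (2.80 ± 0.16, adjusted p = 1.68e-10).

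Between ESC and day 8, all 8 AP-1 genes were lower in ESC, where 24.3% of all genes were lower and 27.6% higher. This comparison shares the ESC libraries with that of ESC and MEF and the day 8 libraries with that of day 8 and day 3. Fosl1 had 7.765 and 4.216 CPM in the ESC libraries 0822 and 0819, against 39.51 to 159.7 CPM at day 8 (median 72.48; log2 fold change -3.79 ± 0.65, adjusted p = 0.000108). Fosb had 2.524 and 0.7666 CPM in ESC, against 3.3 to 56.58 CPM at day 8 (-3.38 ± 1.21, adjusted p = 0.0263), and Atf3 1.941 and 0.3833 CPM in ESC, against 2.006 to 27.04 CPM at day 8 (-3.37 ± 1.18, adjusted p = 0.0236). Jun, Junb, Jund, Fos and Fosl2 had log2 fold changes between -2.74 and -0.80 (adjusted p between 7.61e-05 and 0.0151). Stratified epithelium markers were lower in ESC than at day 8 for 8 of 10 (median log2 fold change -4.68). They summed to 37.85 and 99.47 CPM in the ESC libraries 0822 and 0819, against 125.3 to 540.5 CPM at day 8. Epithelial markers were higher in ESC for 4 of 10 and lower for 2, and pluripotency markers were higher for 10 of 10 (median 5.93). Macrophage markers were higher for 3 of 10, fibroblast markers for 1 of 10 and endothelial markers for 3 of 5 tested, with 1 lower. The part of these markers in the levels of the AP-1 genes was not tested.

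Leaving out the ESC library 0819, so that only the library with fibroblast markers remained, left 4 genes called, Junb, Jund, Fos and Fosl1. Jun (log2 fold change -1.09, adjusted p = 0.17), Fosl2 (-1.81, adjusted p = 0.143), Fosb (-2.76, adjusted p = 0.196) and Atf3 (-2.63, adjusted p = 0.194) were not. Leaving out 0822 instead removed Jund (-0.51, adjusted p = 0.137) and Fosb (-4.47, adjusted p = 0.0576), and gave -4.47 for Jun and -6.16 for Fosl2.

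The effect of the Tet1CD virus was read from Tet1CD against Flag cells over the 3 media of a day. No AP-1 gene passed at either day in the fit of all 28 libraries, where 0.697% of all genes were called at day 3 (0.677% higher with Tet1CD) and 1.76% at day 8 (1.53% higher). At an unadjusted p under 0.05 there were 0 AP-1 genes but 1162 genes in all at day 3 and 1828 at day 8. DESeq2 called 202 and 466 genes but 0 of the 8. Since the numbers pair the libraries within a day, the fit with the number as a block within each day is given beside it. The fit with the block held only the reprogramming libraries, without ESC and MEF. It therefore differs from the fit of all 28 libraries in more than the block. With the block, Fosl2 was higher with Tet1CD at day 3, and Fosb, Fosl1 and Junb were lower with Tet1CD at day 8. In that fit 16.3% of all genes were called at day 3 and 23% at day 8, in either direction. Fosl2 alone among the 8 genes is no more than that share at day 3.

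Fosl2 at day 3 had, in Tet1CD and Flag cells of number 0826, 149.5 and 103.6 CPM with Vc, 143.7 and 117.7 CPM with DKG, and 135.9 and 108.6 CPM with DMSO. In Tet1CD and Flag cells of number 0824 it had 142.6 and 73.31 CPM with Vc, 115.9 and 95.87 CPM with DKG, and 106.2 and 84.89 CPM with DMSO. Tet1CD was the higher one in 6 of 6 pairs. The share of all genes with such a pattern was not counted. With this block the log2 fold change was 0.46 (adjusted p = 4.12e-05). Without it, in the fit that also held ESC and MEF, the log2 fold change was 0.45 ± 0.53 (adjusted p = 0.947). At day 8 the log2 fold change of Fosl2 was -0.06 with the block (adjusted p = 0.533).

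At day 3 the summed markers of 4 cell types were likewise higher with Tet1CD in 6 of 6 pairs. Macrophage markers summed to 15.93 to 71.21 CPM in Tet1CD cells and 9.306 to 13.9 CPM in Flag cells, without overlap. The 8 endothelial markers summed to 122.7 to 175 CPM in Tet1CD cells and 94.86 to 113.6 CPM in Flag cells, also without overlap. Stratified epithelium markers summed to 61.02 to 133.4 CPM in Tet1CD cells (median 72.94) and 41.46 to 61.73 CPM in Flag cells (median 45.68). Fibroblast markers summed to 2867 to 4603 CPM in Tet1CD cells and 1713 to 4026 CPM in Flag cells. None of these markers passed in the fit of all 28 libraries, and their part in the level of Fosl2 was not tested.

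At day 8 Fosb was lower with Tet1CD in 6 of 6 pairs, as the values above show. How many of all genes had this pattern was not counted. In the 0826 libraries Tet1CD cells had 15.17 to 23.49 CPM and Flag cells 35.73 to 56.58 CPM. In the 0824 libraries Tet1CD cells had 3.3 to 3.639 CPM and Flag cells 3.828 to 6.736 CPM. The values without the block are again from the fit that also held ESC and MEF. The log2 fold change of Fosb was -1.02 with the block (adjusted p = 0.000124) and -1.14 ± 0.66 without it (adjusted p = 0.53). Fosl1 had -0.41 with the block (adjusted p = 0.00915) and -0.51 ± 0.35 without it (adjusted p = 0.63). Junb had -0.35 with the block (adjusted p = 0.0115) and -0.39 ± 0.23 without it (adjusted p = 0.552). Atf3 had 0.13 with the block (adjusted p = 0.851), but -0.62 ± 0.19 when the Tet1CD library with high macrophage markers was left out.

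The summed stratified epithelium markers were also lower with Tet1CD at day 8 in 6 of 6 pairs. In the 0826 libraries they came to 125.3 to 170 CPM in Tet1CD cells and 179.6 to 257.3 CPM in Flag cells. In the 0824 libraries they came to 187.9 to 358.6 CPM in Tet1CD cells and 436 to 540.5 CPM in Flag cells. In the fit of all 28 libraries 1 of these 10 markers passed, and it was lower. The sums of epithelial and of fibroblast markers were each lower with Tet1CD in 5 of 6 pairs. Those of pluripotency and endothelial markers were higher in 6 of 6, and that of macrophage markers in 5 of 6. The part of these markers in the levels of Fosb, Fosl1 and Junb was not tested.

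Read by number, in a fit with a term for virus by number that was added after the data were seen, 5 AP-1 genes were lower with Tet1CD at day 8 in the 0826 libraries, where 10.1% of all genes were lower, and none passed in the 0824 libraries, where 5.29% were lower. In the 0826 libraries the log2 fold changes were -1.20 ± 0.17 for Fosb (adjusted p = 0.000119), -0.62 ± 0.10 for Fosl1 (adjusted p = 0.000379), -0.58 ± 0.10 for Junb (adjusted p = 0.000495), -0.40 ± 0.10 for Jun (adjusted p = 0.00822) and -0.63 ± 0.21 for Fos (adjusted p = 0.0382). In the 0824 libraries they were -0.67 ± 0.25 for Fosb (adjusted p = 0.0896), -0.16 ± 0.11 for Fosl1, -0.12 ± 0.10 for Junb, 0.07 ± 0.11 for Jun and 0.33 ± 0.18 for Fos. Without the library of high macrophage markers these 5 genes had log2 fold changes between -1.21 (Fosb) and -0.415 (Jun) in the 0826 libraries, and Atf3 had -0.85 ± 0.17. In the 0824 libraries Fos and Atf3 then had -0.02 ± 0.18 and 0.15 ± 0.33. The difference between the numbers was itself tested with all libraries and no AP-1 gene passed, at adjusted p between 0.08 (Atf3) and 0.4 (Fosb), where 1.16% of all genes did.

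**Figure D4:**
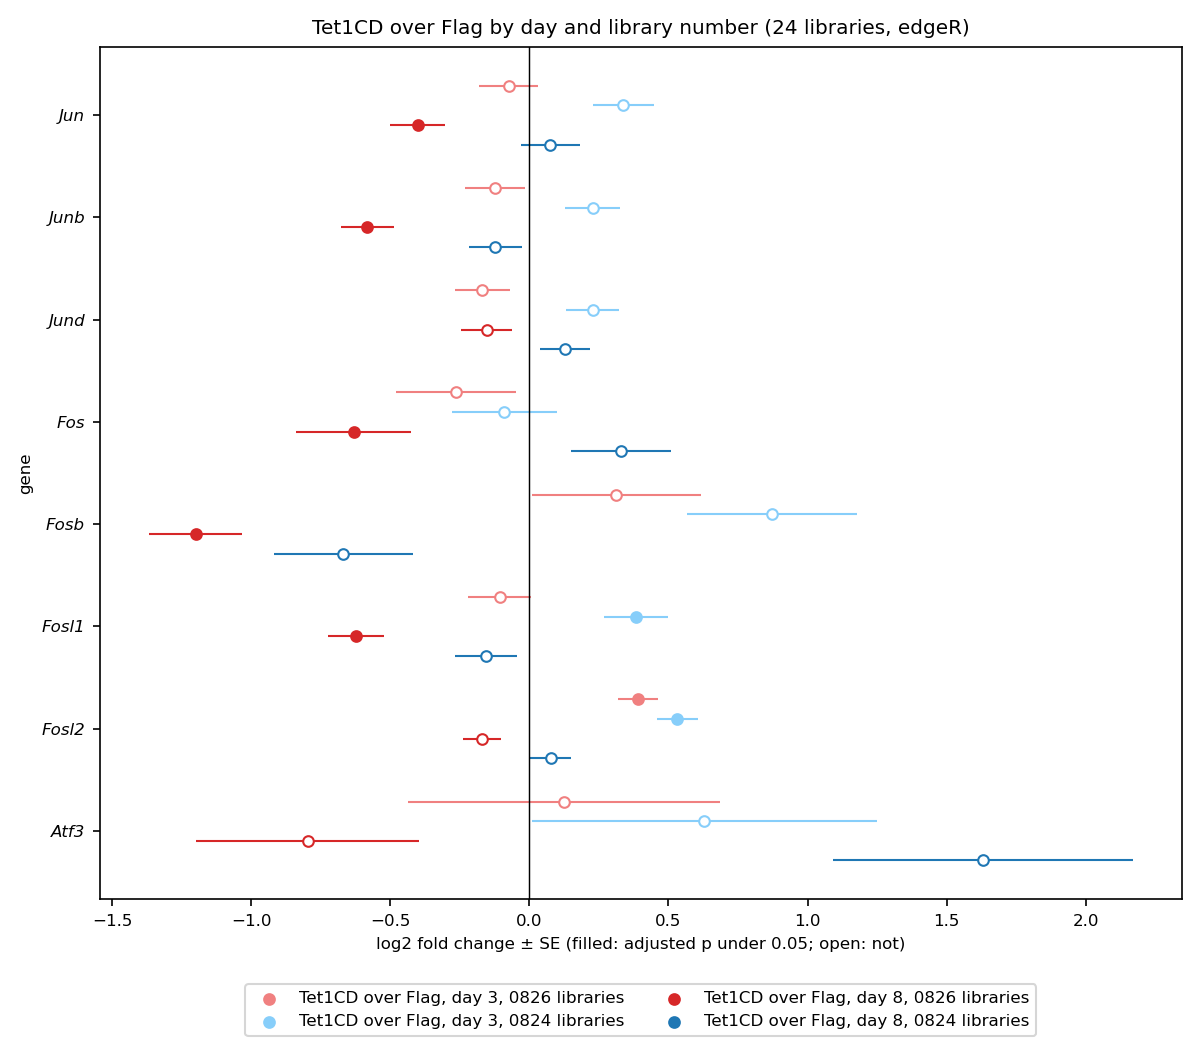
Log2 fold change of Tet1CD over Flag (horizontal axis) with its standard error for each AP-1 gene, at day 3 (pale) and day 8 (dark), in the 0826 (red) and 0824 (blue) libraries; filled points had an adjusted p under 0.05. At day 8 Fosb is lowest in both numbers, at -1.20 and -0.67, and at day 3 Fosl2 lies right of 0 in both, at 0.39 and 0.53.

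At day 3 the same fit gave Fosl2 0.39 ± 0.07 in the 0826 libraries (adjusted p = 0.00328) and 0.53 ± 0.07 in the 0824 libraries (adjusted p = 0.000115), and Fosl1 -0.11 ± 0.11 in the 0826 libraries (adjusted p = 0.665) and 0.38 ± 0.12 in the 0824 libraries (adjusted p = 0.0359). For neither did the difference between the numbers pass (adjusted p = 0.763 for Fosl2 and 0.478 for Fosl1).

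No AP-1 gene passed the test for either Vc or DKG. For Vc over DMSO, 0 of 8 passed at day 3 and at day 8, where 0.121% and 0.201% of all genes did. At these days 428 and 910 genes, none of them an AP-1 gene, had an unadjusted p under 0.05. DESeq2 called 52 and 95 genes and 0 of the 8. The log2 fold changes of Vc lay between -0.19 (Fosb) and 0.26 (Atf3) at day 3 and between -0.51 (Fosb) and 0.60 (Atf3) at day 8, with SE between 0.20 and 0.94, so differences of this order could not be resolved. The value of Atf3 at day 8 includes the Tet1CD library with Vc named above. For DKG over DMSO, over both days, no gene was called, 65 had an unadjusted p under 0.05, DESeq2 called 0, and the AP-1 genes lay between -0.14 (Jund) and 0.21 (Atf3). With the block within each day 3.01% and 8.81% of all genes passed for Vc, and again 0 AP-1 genes.

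The test of whether the effect of Tet1CD differed between Vc and DMSO called 0 AP-1 genes at day 3 and at day 8, where 0.101% and 0.0201% of all genes passed. There 216 and 253 genes had an unadjusted p under 0.05, and DESeq2 called 23 and 10 genes and 0 of the 8. In the 26 comparisons within a single virus, medium or day, of 2 libraries against 2, no AP-1 gene passed. Of all genes, 23.3% to 34.3% were called where a day 3 group was set against MEF, and 0 to 1.26% in the other comparisons. Among the tests of AP-1 genes, 8 of 208 had an unadjusted p under 0.05. The values of Fosb at day 8 over day 3 in Flag cells were the largest of these, with log2 fold changes of 3.39 with Vc, 3.33 with DKG and 3.27 with DMSO.

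Over the 14 groups with 2 libraries, the mean log2 CPM of the AP-1 genes moved with one another to different degrees, which is a description of groups that share stages and library numbers. Jun and Fosl2 were the most alike pair (Pearson r = 0.973) and Fos and Fosb the least alike (r = 0.555). Among 11344 genes with a mean of at least 5 CPM, the gene most like both Jun and Fosl2 was Phldb1 (r = 0.987 and 0.99), a membrane scaffold protein gene, followed by Nbl1 for Jun (0.986) and Timp1, a metalloproteinase inhibitor, for Fosl2 (0.989). Fosl1 was most like Clcf1, a cytokine, and Tbx2 (both 0.987), Junb most like Nrp2 and Loxl4 (0.982 and 0.979), and Jund most like Hivep3 and Id4 (0.968 and 0.957). Fos was most like Nr2f6 and Il3ra (0.967 and 0.965), Fosb most like Skil and Pla2g16 (0.96 and 0.958), and Atf3 most like Sh3bp2 and Pdlim4 (0.941 and 0.94).

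The pathway lists were also counted between the stages, with all ESC libraries. In ESC over MEF, where 25.7% of all genes tested were lower and 26.8% higher, 14 of 22 other immediate early genes were lower and 3 higher. Their median log2 fold change was -1.74, against 0 for all genes tested. There 7 of 10 MAP kinase phosphatases were lower and 1 higher, with Dusp6 at -2.84 ± 0.64 (adjusted p = 0.00149). Of the genes known as AP-1 targets, 14 of 25 were lower and 1 higher in ESC (median -2.46), with Plau, a protease, at -3.73 ± 0.85 (adjusted p = 0.00161). In day 3 over MEF, 19 of 25 AP-1 targets were lower and 2 higher (median -2.16), and 13 of 22 immediate early genes were lower and 1 higher (median -1.11), against a median of 0.05 for all genes. Of all genes in this comparison, 21.7% were lower and 20.1% higher. Klf2 was the immediate early gene with the most negative value there, -3.98 ± 0.30 (adjusted p = 5.05e-08).

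In day 8 over day 3, 11 of 22 immediate early genes were higher and 1 lower, with Arc at 3.71 ± 0.52 (adjusted p = 7.54e-05) and Egr3 at 2.35 ± 0.40 (adjusted p = 4e-04), and 9 of 25 AP-1 targets were higher and 1 lower. The list medians were 0.58 and 0.72, against 0.01 for all genes, of which 14.4% were higher and 10.7% lower. In ESC over day 8, 11 of 22 immediate early genes were lower and 2 higher, where 24.3% of all genes were lower and 27.6% higher. Klf2, a factor also known from naive pluripotent cells, was 5.24 ± 0.27 higher there on the log2 scale (adjusted p = 8.91e-11). For Tet1CD over Flag at day 8, Spp1, which encodes the secreted protein osteopontin, was the only one of the 25 AP-1 targets called, at 1.67 ± 0.16 (adjusted p = 6.09e-06). Of all genes, 1.53% were higher and 0.235% lower in that comparison.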

How the data were processed

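RNA was extracted with Trizol and sequenced after a TruSeq RNA kit, per the labels' protocols. Bowtie, RSEM and mm10 are named in the submitters' processing notes; their versions and the annotation, not given in the sources used here, are unknown. Per the file headers, the deposited tables give each gene's expected count, TPM and FPKM. The deposited FPKM was not analysed, and the deposited TPM served for levels between genes and for 1 alternative, log2(TPM + 1) with limma on genes with a mean of at least 1 TPM. The expected counts deposited by the authors were rounded for tests. Of 29267 identifiers, 28756 matched a GENCODE symbol.

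Tests were two-sided edgeR 4.0.16 quasi-likelihood tests (glmQLFit, glmQLFTest; limma 3.58.1, R 4.3.3) with TMM and filterByExpr, 1 mean per group over 28 libraries in 14 groups, and Benjamini-Hochberg adjustment over 14914 genes at a threshold of 0.05. SE is the absolute log2 fold change divided by the root of F. DESeq2 1.42.0 was an alternative. The tests were tried on simulated counts. A library with 0 counts of a gene could still hold up to 3 (95% limit), counting error only. The kit is not stated to mark strand, so antisense reads cannot be told apart. Sequences are RefSeq's, from GRCm38.p6.

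The members and all lists were chosen with earlier results of these data known. Named genes are the 8 members, the 2 genes most alike to each, and examples from the 2 called genes of a list with the largest absolute fold change in each direction; Csf1r and Adgre1 were picked after their values were seen. Whether equal numbers pair libraries was checked by correlating the 0826 minus 0824 differences of the groups: r lay between 0.388 and 0.58 within day 3 (15 pairs of groups), between 0.377 and 0.751 within day 8 (15 pairs), between -0.0133 and 0.193 across days (36 pairs) and between -0.0115 and 0.332 for MEF with others (12 pairs). The numbers were therefore taken to pair libraries within a day, and 14015 genes were tested with a block within each day. Fits of each number alone, of virus by number, and without the library of high macrophage markers were added after seeing the data. The deposited files of the 2 ESC libraries carry their numbers the other way round from the titles, so which passage is which is uncertain.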

Additional observations from a re-analysis of the deposited data

How the results depend on the processing

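Of 19 calls of AP-1 genes between stages, the same direction and call were found for 18 with RLE size factors, 19 without a filter on low counts, 18 with DESeq2, 16 with limma on TPM and 5 of 5 with the replicate block over MEF, day 3 and day 8 libraries; 0 reversed. The calls lost were Jund in ESC over MEF (RLE and DESeq2) and Jun in day 3 over MEF, Atf3 in day 8 over day 3 and Atf3 in ESC over day 8 (TPM). The count of AP-1 genes called in day 3 over MEF was 1, but 0 with limma on TPM and 2 with the replicate block. In day 8 over day 3 it was 4, but 7 with the replicate block, 8 in the 0826 libraries alone and 1 in the 0824 libraries alone. For Tet1CD over Flag it was 0 in the main fit; at day 3 it was 1 with the replicate block within each day, 1 in the 0826 libraries alone and 1 in the 0824 libraries alone, and at day 8 it was 3 with the within-day block and 6 in the 0826 libraries alone. The common dispersion was 0.0817 without a block, in the fit that also held the ESC and MEF libraries. It was 0.00871 with the within-day block, in a fit of the reprogramming libraries only. The fits thus differ in their libraries as well as in the block, and the part of each was not separated. The cause of these changes was not tested. Leaving out each library in turn gave 5 in every case for ESC over MEF, 0 to 1 for day 3 over MEF, 3 to 5 for day 8 over day 3, 4 to 8 for ESC over day 8, and 0 for Vc, DKG, Tet1CD and the interactions; a group left with 1 library is assumed to vary like the others. Low counts limit Fosb and Atf3, at most 8.775 CPM outside day 8.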
